A study of Mus musculus with 6 samples.

Results

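RNA levels of 39 genes for glucose uptake, glycolysis, lactate handling, pyruvate dehydrogenase and the citric acid cycle were compared in mouse prostates after castration. The genes were taken by symbol from a fixed list, and all 39 were among the 24421 gene symbols measured. Both groups carried the same genotype, with the PB-Cre4 transgene, in which a probasin promoter drives Cre recombinase, and the same floxed alleles. The probasin promoter is known to act in prostate epithelium, so recombination is not expected in other cells of the tissue. There were 4 castrated samples (labelled Cx) and 2 intact samples. The labels give the tissue as prostate, and give neither the time since castration nor the age. They do not state that each sample is a different animal. The p-values therefore rest on the spread among these 6 samples, part of which may be technical.

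Glucose enters cells through transporters such as Slc2a1 and is split in the cytosol to pyruvate by glycolysis. Pyruvate is either reduced to lactate, which leaves through Slc16a family carriers, or enters mitochondria, where the pyruvate dehydrogenase complex feeds it to the citric acid cycle. Normal prostate epithelium is known for secreting citrate rather than oxidizing it. Castration removes the main source of androgens, so the comparison asks whether these enzyme RNAs differ with androgen supply on a genetic background that both groups share.

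In these samples 43679297 to 59170793 reads were counted in genes, and values are rescaled CPM, that is reads per 1000000 reads counted in genes divided by a size factor between 0.981 and 1.05. Fkbp5, a target of the androgen receptor, was at 34.0, 29.7, 32.0 and 34.1 rescaled CPM in castrated samples 1 to 4, against 254 and 251 in intact samples 1 and 2. The luminal keratin genes Krt8 and Krt18 were high in both groups, at 834 rescaled CPM or more, while Pbsn, the probasin gene, was at 0.209 to 2.47 in castrated and 2.99 and 7.45 in intact samples. Over 8 basal epithelial markers the summed level was 902, 3827, 1111 and 3090 rescaled CPM in castrated samples 1 to 4, against 3874 and 4317 in intact samples. Over 7 neutrophil markers it was 236 to 410 in castrated against 43.8 and 95.7 in intact samples, over 10 smooth muscle markers 355 to 562 in castrated against 280 and 288 in intact samples, and over 7 seminal vesicle markers at most 0.161 in any sample. Castrated sample 4 correlated at 0.941 to 0.970 with the other castrated samples, which correlated with each other at 0.969 to 0.988. With intact samples 1 and 2 castrated sample 4 correlated at 0.9505 and 0.952, and castrated samples 1 to 3 at 0.941 to 0.952. In bulk samples, fewer cells of a type and less RNA per cell cannot be told apart.

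In limma none of the pathway's 38 tested genes passed. The test, limma with Benjamini-Hochberg adjustment, called 0 of 38 at an adjusted p under 0.05, where 1.97% of all 13898 tested genes were called, 0.698% higher and 1.27% lower in castrated samples. edgeR's quasi-likelihood test on the recovered reads also called 0, against 1.46% of all genes. DESeq2 on the reads called 3, Suclg2 and Fh1 higher and Pfkl lower, against 9.3% of all genes, 4.76% higher and 4.54% lower. At an unadjusted p under 0.05 limma gave 4 of the 38, with 3 higher and 1 lower, where 15.9% of all genes lay under that level, 7.84% higher and 8.06% lower. The median log2 difference over the 38 was 0.02, against 0.00023 over all genes tested, and 21 of 38 were positive, where 50.1% of all genes were. Their median absolute difference was 0.13 on the log2 scale, against 0.18 over all genes tested and 0.15 over the 10138 with a mean of at least 10 rescaled CPM. The 95% interval of the difference lay within 1 log2 unit either way for 35 of the 38, or 92.1%. This held for 73.7% of all genes tested and 83.8% of those with a mean of at least 10 rescaled CPM. For those 35 members the intervals leave out a 2-fold change in either direction. The other member, the pyruvate dehydrogenase kinase Pdk4, was below the filter on low values.

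**Figure D1:**
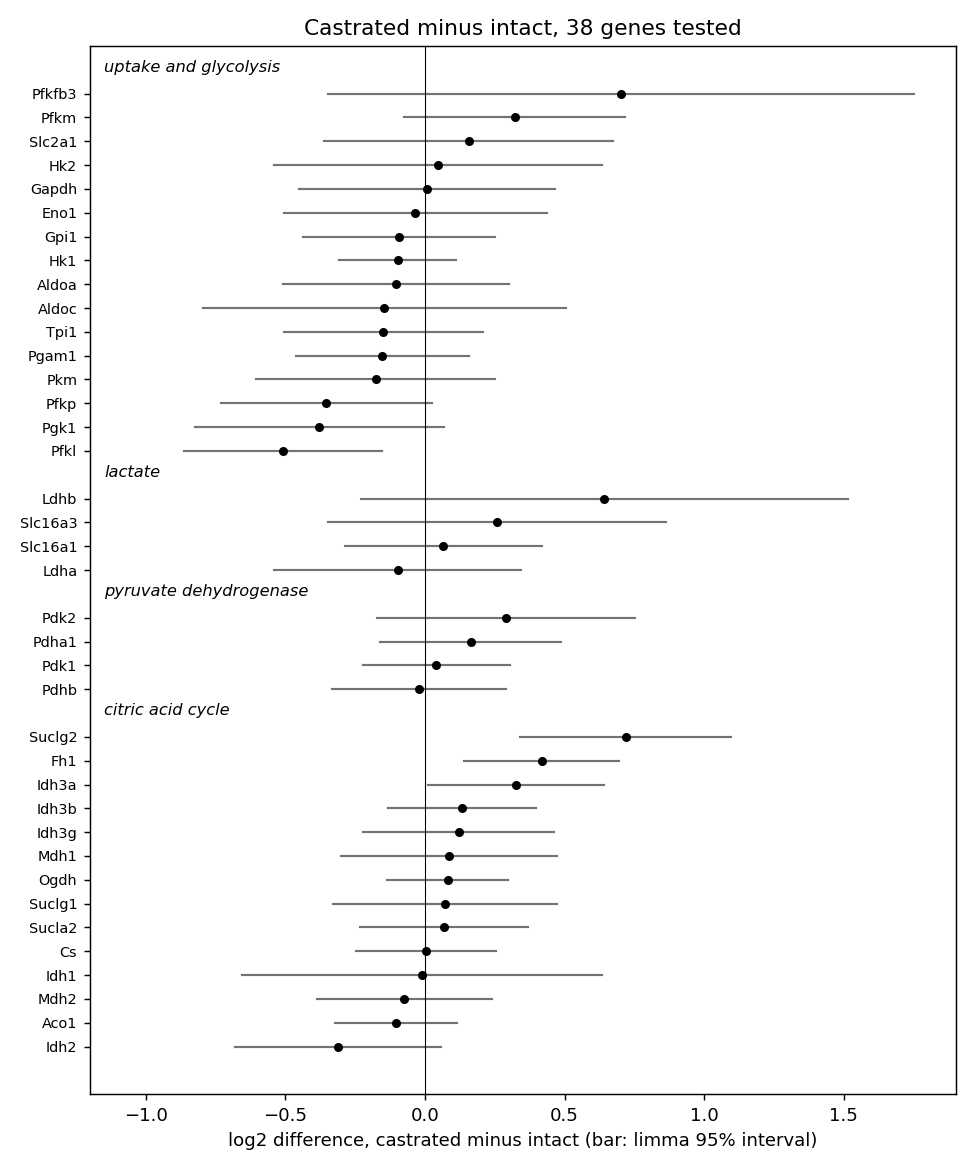
Log2 difference of each tested gene, castrated minus intact samples, with limma's 95% interval as a bar, grouped by step of the pathway. The intervals of 4 genes leave out 0, those of Pfkl below it and of Suclg2, Fh1 and Idh3a above it, and Pfkfb3 and Ldhb have the widest intervals.

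The promoter stretches of 6 genes are printed here, since Slc2a1, Hk2 and Pfkfb3 had the largest ratios between the 2 intact samples among the 16 uptake and glycolysis genes, and Pfkl, Suclg2 and Fh1 had the smallest p for the castrated and intact difference. Each is the 250 bases before the first listed transcript start, 5′ to 3′ on the gene's strand, from RefSeq on GRCm38.p6, the assembly that mm10 names. Capitals mark ACGTG on either strand, the core to which hypoxia-inducible factors bind. That core is part of the E-box CACGTG, so both motifs overlap.
Slc2a1, chr4:119108495-119108744, plus strand: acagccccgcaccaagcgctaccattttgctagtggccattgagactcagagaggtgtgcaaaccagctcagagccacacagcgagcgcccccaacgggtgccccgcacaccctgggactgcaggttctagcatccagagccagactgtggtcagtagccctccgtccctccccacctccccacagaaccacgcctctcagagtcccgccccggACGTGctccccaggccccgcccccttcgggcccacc
Hk2, chr6:82774455-82774704, minus strand: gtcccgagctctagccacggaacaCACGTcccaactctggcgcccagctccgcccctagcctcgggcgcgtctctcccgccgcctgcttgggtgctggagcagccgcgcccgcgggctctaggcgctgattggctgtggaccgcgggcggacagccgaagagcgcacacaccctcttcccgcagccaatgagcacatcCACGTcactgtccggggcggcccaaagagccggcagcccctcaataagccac
Pfkfb3, chr2:11553930-11554179, minus strand: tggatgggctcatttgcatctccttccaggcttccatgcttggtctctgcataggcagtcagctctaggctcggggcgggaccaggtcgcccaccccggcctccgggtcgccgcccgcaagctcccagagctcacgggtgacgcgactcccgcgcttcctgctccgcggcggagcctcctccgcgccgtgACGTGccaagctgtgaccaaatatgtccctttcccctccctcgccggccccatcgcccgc
Pfkl, chr10:78009808-78010057, minus strand: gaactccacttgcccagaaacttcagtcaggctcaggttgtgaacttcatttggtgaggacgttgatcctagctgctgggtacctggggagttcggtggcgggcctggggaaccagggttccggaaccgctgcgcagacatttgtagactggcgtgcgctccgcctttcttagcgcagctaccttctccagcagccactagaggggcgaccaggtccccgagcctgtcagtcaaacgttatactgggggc
Suclg2, chr6:95718847-95719096, minus strand: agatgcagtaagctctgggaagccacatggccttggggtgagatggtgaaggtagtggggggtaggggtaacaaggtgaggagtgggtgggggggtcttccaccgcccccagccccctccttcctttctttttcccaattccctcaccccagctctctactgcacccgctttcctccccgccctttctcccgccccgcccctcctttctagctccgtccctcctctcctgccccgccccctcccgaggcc
Fh1, chr1:175625636-175625885, minus strand: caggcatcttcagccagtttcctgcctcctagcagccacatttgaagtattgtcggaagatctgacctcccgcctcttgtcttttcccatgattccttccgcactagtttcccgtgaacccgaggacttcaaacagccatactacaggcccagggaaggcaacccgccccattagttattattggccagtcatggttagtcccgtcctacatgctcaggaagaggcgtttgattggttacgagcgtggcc
In these windows ACGTG lay 36 bases before the start of Slc2a1, 60 before that of Pfkfb3, and 226 and 52 before that of Hk2. The letters ACGTG are not in the printed windows of Pfkl, Suclg2 and Fh1. ACGTG was also in a listed window of Ldha, Pgk1, Pgam1, Pkm, Aldoa, Pfkm, Slc16a1 and Slc16a3. For these genes the ratio of intact sample 1 to intact sample 2 was 1.13, 1.15, 1.15, 1.11, 0.878, 0.9445, 1.305 and 1.288. The other glycolysis and lactate genes, Hk1, Gpi1, Pfkl, Pfkp, Aldoc, Tpi1, Gapdh, Eno1 and Ldhb, had no ACGTG in a listed window. In that order their ratios were 1.065, 0.9052, 0.9113, 1.112, 0.7202, 1.066, 1.104, 0.8148 and 0.5843. A link between the motif and the ratio of the intact samples was not tested. Of the 39 genes 38 were in the promoter table. Genes have unequal numbers of listed starts, so shares are given for the first listed window of each gene. ACGTG was in 14 of 38, or 36.8%, against 21.3% of the 10501 tested genes in the table and 16.6% of all 27025 genes there. In any listed window, ACGTG was found for 11 of 20 glycolysis and lactate genes, 2 of 5 pyruvate dehydrogenase genes and 3 of 13 citric acid cycle genes. Counts over any window rise with the number of listed starts and have no share over all genes beside them. They therefore do not compare the steps of the pathway. The hexamer TGTTCT, to which androgen and other steroid receptors bind, was in 6 of the 38 first windows on either strand, or 15.8%, against 10.9% of the tested genes and 16.2% of all genes in the table. A match is a description of letters and shows no binding.

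The glucose transporter gene Slc2a1 and the hexokinase genes Hk1 and Hk2 were not called in limma, edgeR or DESeq2. In Slc2a1 and Hk2 the 2 intact samples differed from each other by more than the group means did. Slc2a1, the main glucose transporter of dividing cells (chromosome 4, 119108745 to 119137330), was at 149, 165, 199 and 162 rescaled CPM in castrated samples 1 to 4, against 194 and 117 in intact samples 1 and 2. Hk2, the inducible hexokinase that traps glucose as its phosphate (chromosome 6, 82725025 to 82774454), was at 144, 146, 195 and 173 in castrated samples, against 212 and 118 in intact samples. For Hk2 the intact samples lay on either side of all 4 castrated samples, and for Slc2a1 only castrated sample 3 lay above both. Hk1, the widely expressed hexokinase, was at 245 ± 9.18 rescaled CPM in castrated samples (SD, n = 4) and at 263 ± 11.7 in intact samples (SD, n = 2). Its groups did not overlap, and its log2 difference was -0.10 with an interval of -0.31 to 0.11.

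Phosphofructokinase commits glucose to glycolysis, and Pfkl, its liver-type subunit (chromosome 10, 77986947 to 78009807), had the smallest p of the glycolytic genes. It was at 183, 209, 257 and 197 rescaled CPM in castrated samples 1 to 4, against 285 and 313 in intact samples. All 4 castrated samples lay below both intact samples. The log2 difference was -0.51 with a standard error of 0.15, or 0.703-fold (interval -0.86 to -0.15, limma adjusted p = 0.156, and adjusted p = 0.0438 in DESeq2). Pfkp, the platelet-type subunit, was at 70.3, 66.0, 91.3 and 64.5 in castrated samples, against 97.6 and 87.7 in intact samples, with a log2 difference of -0.35 (interval -0.73 to 0.02). Castrated sample 3 lay between the intact samples. Of the 50-base stretches of the main Pfkp transcript, 17.1% also occur in Pitrm1, whose reads may not be told apart from it there. Pfkm, the muscle-type subunit, was at 31.1, 28.2, 33.5 and 23.0 in castrated samples, against 22.2 and 23.5 in intact samples, with a log2 difference of 0.32 (interval -0.07 to 0.72). Castrated sample 4 fell between the intact samples and the other 3 castrated samples lay above both. Same-strand exons of other genes overlap 10.2% of the Pfkm exon bases. Skeletal muscle markers summed to 24.3 rescaled CPM in castrated sample 1 and to at most 6 in the other 5 samples, and the smooth muscle markers given above were higher in all castrated samples. The part of either in the Pfkm values was not tested.

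Pfkfb3 makes fructose 2,6-bisphosphate, the strongest activator of phosphofructokinase. It was at 57.5, 60.7, 110 and 90.6 rescaled CPM in castrated samples 1 to 4, against 77.7 and 28.3 in intact samples 1 and 2 (chromosome 2, 11471430 to 11554071). Intact sample 1 lay inside the castrated range and intact sample 2 below it. The log2 difference was 0.70 (interval -0.35 to 1.75, limma adjusted p = 0.517). It was 1.42 without intact sample 1 and -0.02 without intact sample 2.

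The most abundant RNAs of the pathway were the same 8 in both groups. Per kilobase of transcript, Gapdh, Aldoa, Pkm and Ldha held the first 4 places in both groups, followed by Pgk1, Tpi1, Pgam1 and Gpi1. Gapdh, which oxidizes glyceraldehyde phosphate, was at 1038, 883, 947 and 685 rescaled CPM per kilobase in castrated samples, against 918 and 831 in intact samples. The neighbouring places do not differ beyond the spread between samples, with Aldoa, the main aldolase, at 890, 805, 945 and 690 in castrated and 833 and 948 in intact samples. Pgk1, which makes the first ATP of the pathway (X chromosome, 106187100 to 106203699), was at 959, 927, 1170 and 770 rescaled CPM in castrated samples, against 1320 and 1147 in intact samples, a log2 difference of -0.38 (interval -0.82 to 0.07). Castrated sample 3 lay between the intact samples and the other 3 below both. Pgam1, a phosphoglycerate mutase, was at 525, 588, 609 and 502 in castrated samples, against 660 and 575 in intact samples, with a log2 difference of -0.15 (interval -0.46 to 0.16). Pkm, the pyruvate kinase, was at 1765 ± 234 in castrated samples (SD, n = 4) and 1985 ± 151 in intact samples (SD, n = 2), and its RNA level does not separate the M1 and M2 splice forms. Other members of this stretch, Gpi1, Tpi1, Aldoa, Aldoc, Gapdh and Eno1, had log2 differences between -0.15 and 0.01 with intervals that include 0.

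Several of these abundant transcripts have near-identical copies, which limits what their counts stand for. Of 50-base stretches of the main transcript, 82.5% of those in Gapdh, 72.2% in Eno1, 68.0% in Pgk1, 41.5% in Pgam1 and 34.4% in Pkm also occur in transcripts of other genes. Over 20% of the stretches were shared in 9 of the 39 genes. The labels and headers do not say how reads with several matches were counted. Eno1, the enolase, was counted at 11.2 to 15.9 rescaled CPM in castrated and 12.3 and 15.2 in intact samples, while its near copy Eno1b, which shares 70.5% of the Eno1 stretches, was counted at 65.7 to 79.5 in castrated and 80.3 and 76.4 in intact samples. The enolase level is therefore uncertain. Eno1b had a log2 difference of -0.12 (interval -0.37 to 0.12).

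**Figure D2:**
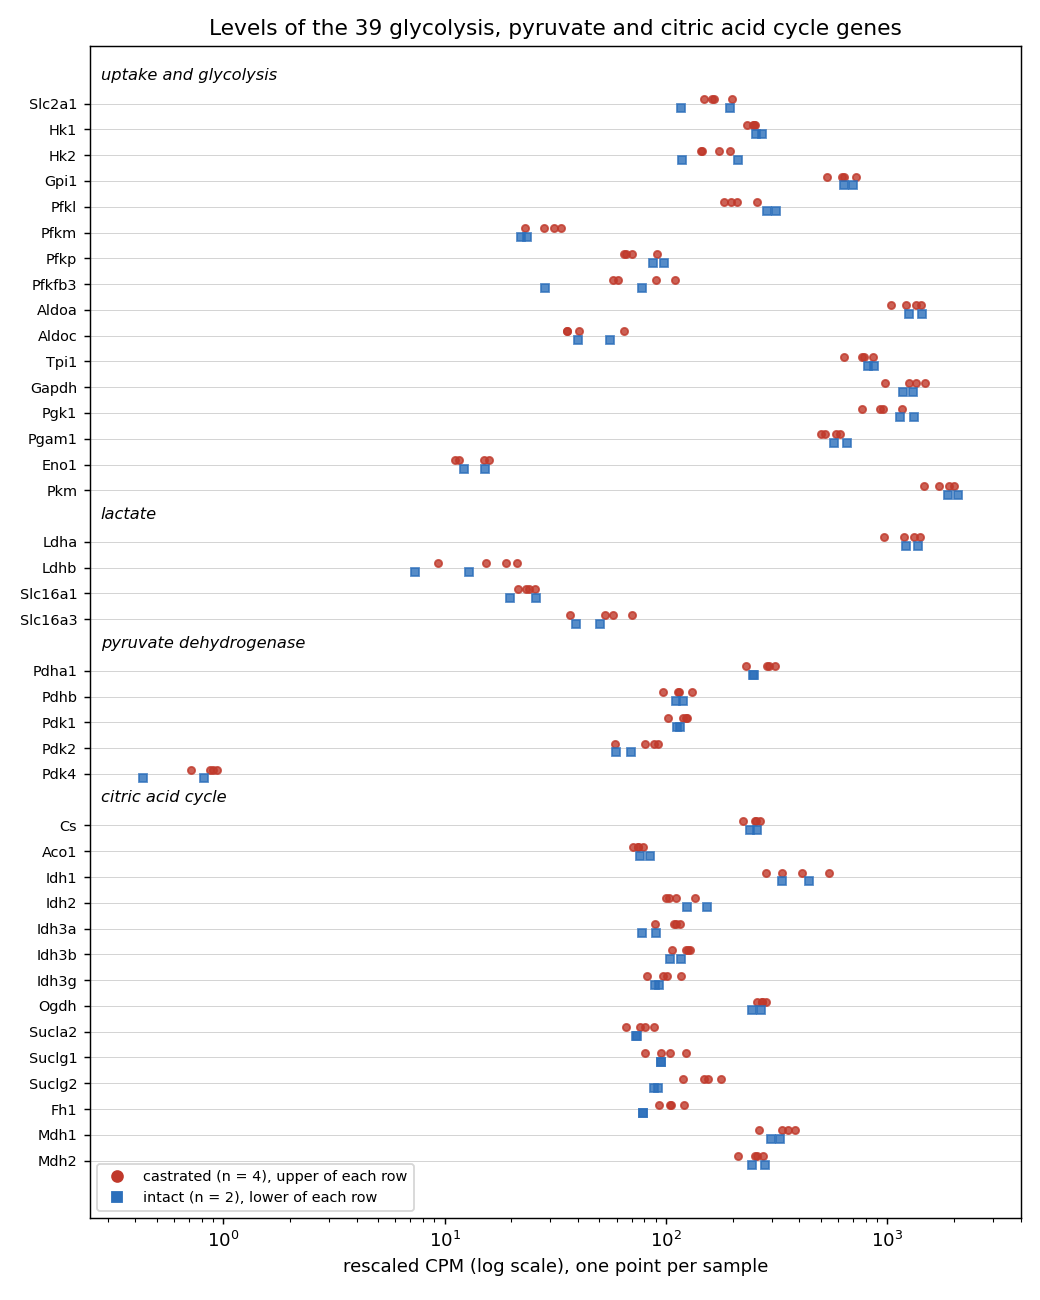
Rescaled CPM of each of the 39 genes in every sample on a log axis, with castrated samples as circles above and intact samples as squares below in each row. Pfkl has all castrated samples below both intact samples, Suclg2 and Fh1 have them above, and most other rows overlap.

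Lactate genes showed no call. Ldha, the lactate dehydrogenase subunit that favours lactate formation, was at 1315, 1193, 1403 and 962 rescaled CPM in castrated samples, against 1370 and 1216 in intact samples. Its log2 difference was -0.10 (interval -0.54 to 0.34). Ldhb, the heart-type subunit, was at 15.4, 21.2, 19.0 and 9.37 in castrated samples, against 7.35 and 12.9 in intact samples, with a log2 difference of 0.64 (interval -0.23 to 1.52). Castrated sample 4 lay between the intact samples and the other 3 above both. Per kilobase, Ldha was at 545 to 794 rescaled CPM in castrated and 688 to 776 in intact samples, while Ldhb was at 7.19 to 16.2 in castrated and 5.64 to 9.93 in intact samples, so lactate dehydrogenase RNA was nearly all Ldha in each sample. The lactate carriers Slc16a1 and Slc16a3 had log2 differences of 0.07 and 0.26 with intervals that include 0.

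Bsg, or basigin, the membrane partner that brings the Slc16a1 and Slc16a3 carriers to the cell surface, fell in castrated samples. It was at 915, 871, 850 and 799 rescaled CPM in castrated samples 1 to 4, against 1445 and 1722 in intact samples (chromosome 10, 79704358 to 79711979). The groups did not overlap, the log2 difference was -0.88 with a standard error of 0.13, or 0.544-fold (limma adjusted p = 0.0339, with adjusted p = 0.0259 in edgeR and 2.8e-10 in DESeq2). Ldhd, which oxidizes D-lactate in mitochondria, also fell, at 17.4, 20.5, 17.9 and 24.0 in castrated samples, against 40.3 and 48.0 in intact samples (chromosome 8, 111625611 to 111630336). Its log2 difference was -1.13 with a standard error of 0.17, or 0.456-fold (limma adjusted p = 0.0294, and adjusted p = 0.0338 in edgeR). An antisense gene, Znrf1, covers 42.2% of the exon bases of Ldhd, and no source used here says if strand was considered in counting. Znrf1 was at 122 to 144 in castrated and 171 and 159 in intact samples. With 1 sample left out, Bsg and Ldhd each passed in 1 of 6 fits, that without castrated sample 4 (adjusted p = 0.0157 and 0.00757). The Bsg call was also lost in limma with no filter on low values (adjusted p = 0.083) and with the replicate block (adjusted p = 0.0607). Bsg and Ldhd were the 2 genes called in limma among 11 tested other pyruvate and lactate genes. Of all 13898 tested genes limma called 1.97%, with 1.27% lower in castrated samples.

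Of the pyruvate dehydrogenase genes tested, 0 of 4 passed in limma, edgeR or DESeq2, and 0 lay under an unadjusted p of 0.05. Pdha1, the catalytic subunit (X chromosome, 160122219 to 160138430), was at 310, 286, 291 and 230 rescaled CPM in castrated samples, against 246 and 249 in intact samples, with a log2 difference of 0.16 (interval -0.16 to 0.49). Castrated sample 4 lay below the intact samples and the other 3 above them. Of its 50-base stretches, 16.5% also occur in Map3k15. Pdk2, a kinase that switches the complex off, was at 92.0, 80.4, 88.4 and 58.7 in castrated samples, against 59.6 and 69.3 in intact samples, with a log2 difference of 0.29 (interval -0.17 to 0.75). Its order was the same, with castrated sample 4 lowest of the 6. Pdhb and Pdk1 had log2 differences of -0.02 and 0.04. Pdk4, the kinase known to respond to fasting, was at 0.716 to 0.934 rescaled CPM in castrated and 0.817 and 0.436 in intact samples. Pdp1, a phosphatase that switches the complex on, was at 46.9, 36.5, 34.8 and 24.5 in castrated samples, against 15.3 and 18.4 in intact samples, with a log2 difference of 1.03 (limma adjusted p = 0.103, and adjusted p = 0.0024 in DESeq2). It was named after its values were seen.

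In the citric acid cycle 10 of 14 log2 differences were positive, against 50.1% of all genes tested, with a median of 0.08, against 0.00023. In limma and edgeR 0 of the 14 passed, while DESeq2 called 2 higher, against 4.76% of all genes. At an unadjusted p under 0.05 limma gave 3 higher, against 7.84% of all genes. Suclg2, the subunit that makes succinyl-CoA ligase produce GTP (chromosome 6, 95473009 to 95718858), had the smallest p of all 38. It was at 177, 149, 154 and 119 rescaled CPM in castrated samples 1 to 4, against 91.8 and 88.2 in intact samples. All 4 castrated samples lay above both intact samples, with castrated sample 4 nearest to them. The log2 difference was 0.72 with a standard error of 0.16, or 1.65-fold (interval 0.34 to 1.10, limma adjusted p = 0.0836, with adjusted p = 0.0877 in edgeR and 0.00157 in DESeq2). Without castrated sample 4 it was 0.82 and passed in limma (adjusted p = 0.0106). Of its 50-base stretches, 21.8% also occur in another gene model, Gm15163. Sucla2, the alternative subunit that makes the ligase produce ATP, had a log2 difference of 0.07 (interval -0.23 to 0.37), and Suclg1, the subunit that pairs with either of them, also 0.07 (interval -0.33 to 0.47). Sucla2 was at 88.2, 76.3, 80.2 and 66.3 in castrated samples, against 73.9 and 73.5 in intact samples.

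Fh1, the fumarase that turns fumarate into malate (chromosome 1, 175601378 to 175625635), was at 120.1, 104, 106 and 92.8 rescaled CPM in castrated samples, against 79.1 and 78.5 in intact samples. The groups did not overlap, and the log2 difference was 0.42 with a standard error of 0.12, or 1.34-fold (limma adjusted p = 0.14, and adjusted p = 0.0306 in DESeq2). Without castrated sample 4 it was 0.48 and passed in limma (adjusted p = 0.0378). Groups did not overlap in 4 of the 38 genes, Suclg2 and Fh1 higher and Hk1 and Pfkl lower, or 10.5%, against 26.6% of all genes tested, 13.4% higher and 13.2% lower.

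Isocitrate dehydrogenase genes had differences of both signs, and 0 passed in limma, edgeR or DESeq2. Idh3a, the catalytic subunit of the NAD-linked enzyme (chromosome 9, 54586511 to 54604662), was at 111, 115, 109 and 89.3 in castrated samples, against 90.6 and 78.2 in intact samples, with a log2 difference of 0.33 (interval 0.01 to 0.64, limma adjusted p = 0.298). Castrated sample 4 fell between the intact samples and the other 3 lay above them. Idh3b, a regulatory subunit, was at 129, 126, 123 and 107 in castrated samples, against 104 and 117 in intact samples, with a log2 difference of 0.13 (interval -0.13 to 0.40). Idh2, the mitochondrial NADP-linked enzyme, was at 100, 135, 103 and 111 in castrated samples, against 125 and 154 in intact samples, with a log2 difference of -0.31 (interval -0.68 to 0.06). Idh1, its cytosolic counterpart, ranged from 283 in castrated sample 3 to 544 in castrated sample 4, which span the intact values of 334 and 442. Citrate synthase, Cs, which starts the cycle, was at 250 ± 18.5 in castrated samples (SD, n = 4) and 249 ± 13.3 in intact samples (SD, n = 2), with a log2 difference of 0.00 (interval -0.25 to 0.25). Cytosolic aconitase Aco1, oxoglutarate dehydrogenase Ogdh, Idh3g and the malate dehydrogenases Mdh1 and Mdh2 had log2 differences between -0.10 and 0.12.

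Ratios of related genes within a sample do not depend on scaling between samples, and 9 were compared. The ratio of Sucla2 to Suclg2 was 0.497, 0.513, 0.520 and 0.557 in castrated samples, against 0.805 and 0.834 in intact samples, a log2 difference of -0.65. The ratio of Pfkm to Pfkl was 0.1695, 0.135, 0.130 and 0.117 in castrated samples, against 0.0778 and 0.0752 in intact samples, a log2 difference of 0.83. In these 2 ratios the groups did not overlap, and each had an exact two-sided permutation p of 0.0667, the smallest that 15 arrangements of 4 and 2 samples allow, with an adjusted p of 0.3 over the 9 ratios, so no ratio could pass 0.05. The ratio of Ldhb to Ldha was 0.0117, 0.0177, 0.0135 and 0.00974 in castrated samples, against 0.00537 and 0.0107 in intact samples, with an exact permutation p of 0.2 and an adjusted p of 0.6. The other 6 ratios had log2 differences between -0.04 and 0.30, and their groups overlapped.

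**Figure D3:**
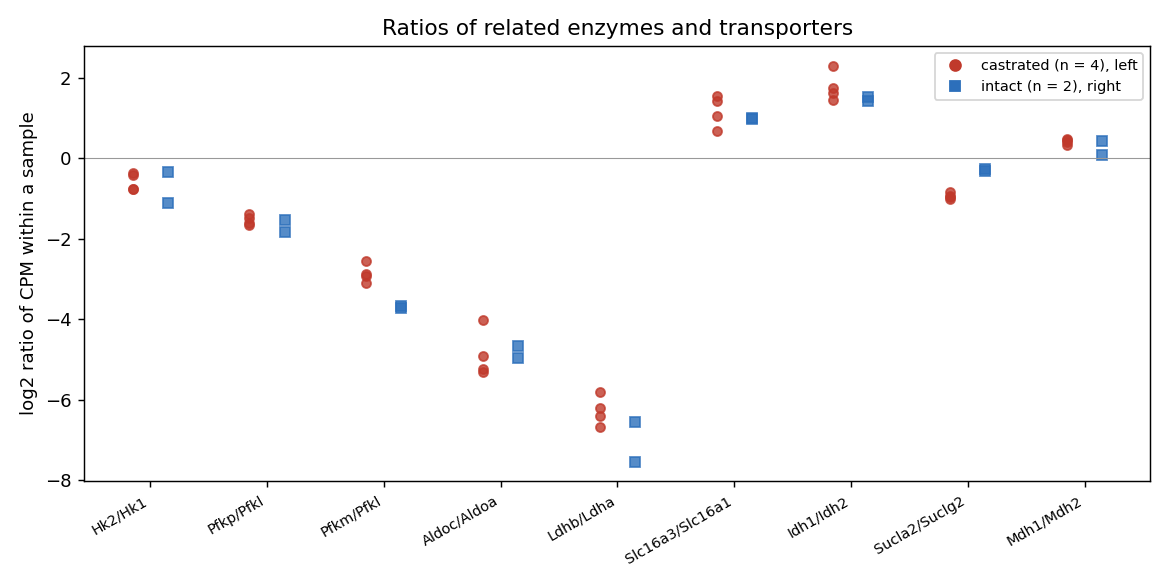
Log2 ratio of the CPM of each gene pair within each sample, with castrated samples as circles on the left and intact samples as squares on the right of each pair. The groups lie apart for Pfkm to Pfkl and for Sucla2 to Suclg2 and overlap for the other 7 pairs.

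Within groups, glycolytic genes and citric acid cycle genes followed different orders of samples. Of 16 uptake and glycolysis genes, 14 were highest of the 4 castrated samples in castrated sample 3, or 87.5%, against 18.8% of all genes tested. Castrated sample 3 also had the highest neutrophil and adipocyte marker sums of the castrated samples. The neutrophil sums were 281, 236, 410 and 328 rescaled CPM in castrated samples 1 to 4, against 95.7 and 43.8 in intact samples. The 8 adipocyte markers summed to 46.1, 23.8, 90.8 and 8.34 in castrated samples, against 7.28 and 13.8 in intact samples. Of 14 citric acid cycle genes, 2 were highest there, while 9 were highest in castrated sample 1, or 64.3%, against 31.8% of all genes tested. In castrated sample 4, 11 of the 14 were lowest, or 78.6%, against 38.6% of all genes tested. The 8 luminal markers summed to 7026, 5577, 6179 and 4769 in castrated samples 1 to 4, against 6176 and 5769 in intact samples, so they too were highest in castrated sample 1 and lowest in castrated sample 4. Sums over fibroblast, endothelium and macrophage markers were highest of the castrated samples in castrated sample 4, at 1929, 148 and 856, against at most 1379, 88.1 and 612 in castrated samples 1 to 3. The part of these cell types in the orders of samples was not tested. Of the 38 genes 7 lay above the mean of castrated samples 1 to 3 in castrated sample 4, against 49.5% of all genes tested. Glycolysis genes were lowest in castrated sample 4 in 10 of 16 and in castrated sample 1 in 6 of 16. The glycolysis genes held 0.848%, 0.802%, 0.952% and 0.729% of all counted reads in castrated samples 1 to 4, against 0.917% and 0.858% in intact samples, and the citric acid cycle genes 0.254%, 0.251%, 0.243% and 0.244% in castrated samples, against 0.221% and 0.233% in intact samples. These shares rest mainly on the most abundant genes and carry no test.

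Hypoxia response targets, a list of 14 genes outside the 39 that low oxygen is known to induce, were also mostly highest in castrated sample 3. This held for 13 of the 14 among the castrated samples, and 13 were higher in intact sample 1 than in intact sample 2, or 92.9%, against 50.5% of all genes tested. Egln3, an oxygen sensor, was at 175, 214, 285 and 213 rescaled CPM in castrated samples 1 to 4, against 265 and 124 in intact samples 1 and 2. Adm, which encodes adrenomedullin, was at 11.4, 13.5, 15.5 and 10.3 in castrated samples, against 12.4 and 4.52 in intact samples. Both were picked after their values were seen. Of the 16 uptake and glycolysis genes 10 were higher in intact sample 1 than in intact sample 2, or 62.5%, while Gpi1, Pfkl, Pfkm, Aldoa, Aldoc and Eno1 were lower there. The 3 with the largest ratios were Pfkfb3, Hk2 and Slc2a1: intact sample 1 exceeded intact sample 2 by 2.71-fold for Pfkfb3, 1.79-fold for Hk2 and 1.66-fold for Slc2a1, differences larger than those of 98.1%, 94.4% and 92.6% of all genes tested. The exception among the 14 targets was the carbonic anhydrase gene Car9, at 21.8, 41.1, 25.9 and 72.1 in castrated samples, against 16.8 and 44.5 in intact samples. Of the 14 targets 0 passed in limma, edgeR or DESeq2, with 2 at an unadjusted p under 0.05 in limma, and Mxi1, which had the smallest p, had a log2 difference of 0.47 (limma adjusted p = 0.218).

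**Figure D4:**
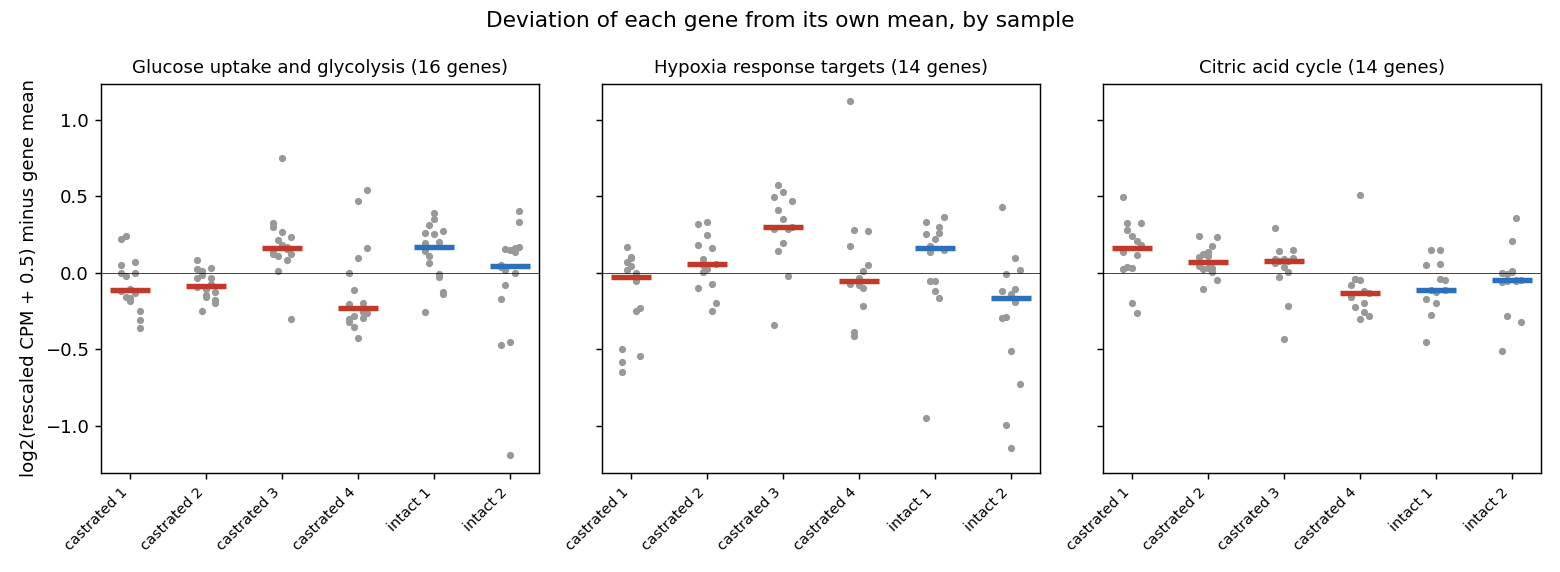
Each grey point is a gene's log2(rescaled CPM + 0.5) in a sample minus that gene's mean over the 6 samples, and the bars are medians over the genes of a list. The median is highest of the castrated samples in castrated sample 3 for glycolysis genes (0.16) and hypoxia response targets (0.30), and in castrated sample 1 for citric acid cycle genes (0.16).

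Neighbouring pathways gave no further call in limma. Their counts are set against the 15.9% of genes with an unadjusted limma p under 0.05, and against 4.76% called higher and 4.54% lower in DESeq2. Of 13 other tested glucose and glycolysis genes 0 passed in limma or edgeR, with 5 at an unadjusted p under 0.05 in limma, while DESeq2 gave 1 higher and 2 lower. Slc2a12, a glucose transporter, was at 35.7, 19.9, 22.6 and 14.8 rescaled CPM in castrated samples, against 56.3 and 59.6 in intact samples, with a log2 difference of -1.37 (limma adjusted p = 0.0922). It passed without castrated sample 1 (-1.60, adjusted p = 0.0457) or castrated sample 4 (-1.18, adjusted p = 0.0422). The myeloid hexokinase gene Hk3, named after its values were seen, was at 10.9, 7.77, 13.6 and 19.8 in castrated samples, against 6.14 and 5.32 in intact samples (limma adjusted p = 0.199). The summed neutrophil markers given above were also higher in all castrated samples, and their part in Hk3 was not tested. Pcx, the pyruvate carboxylase that refills the cycle, was at 24.2, 36.1, 25.3 and 21.7 in castrated samples, against 48.8 and 52.7 in intact samples, with a log2 difference of -0.93 (limma adjusted p = 0.0831). It passed without castrated sample 2 (-1.08, adjusted p = 0.0459). Me3, a mitochondrial malic enzyme, was at 8.04, 6.82, 8.24 and 3.01 in castrated samples, against 1.98 and 1.94 in intact samples, with a log2 difference of 1.43 (limma adjusted p = 0.138). It passed without castrated sample 4 (1.73, adjusted p = 0.00661). The lists of Pcx and Me3, for gluconeogenesis and other citric acid cycle genes, had 0 of 5 and 0 of 10 tested genes past the threshold in limma or edgeR, with 2 and 1 at an unadjusted p under 0.05 in limma and 2 and 1 called in DESeq2. Among 10 shuttle and citrate export genes the dicarboxylate carrier Slc25a10 had the smallest p (log2 difference -0.30, limma adjusted p = 0.23), and among 8 pentose phosphate genes the transketolase Tkt (-0.30, limma adjusted p = 0.197). In those 2 lists 0 passed in limma or edgeR, 1 and 3 lay under an unadjusted p of 0.05 in limma, and DESeq2 called 0 and 1.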

How the data were processed

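The authors deposited CPM per gene for each sample. TopHat2, HTSeq and edgeR are named without versions, and the build as mm10, per the submitters' processing notes. In all 6 columns 100% of values were whole multiples of the lowest value above 0 (tolerance 1e-06), which gave back whole reads. In a sample, 0 reads are compatible with up to 3, or 0.0507 to 0.0687 CPM, for counting error alone.

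CPM was divided by median-of-ratios size factors. The filter kept 13898 genes reaching a deposited CPM of 1 in 2 or more samples. Castrated and intact samples were compared on log2(rescaled CPM + 0.5) with limma 3.58.1 (R 4.3.3, empirical Bayes, mean-variance trend). On this scale changes of low genes come out too small. P-values are two-sided and Benjamini-Hochberg adjusted over all genes tested, threshold 0.05. Ratios had exact permutation tests over samples. edgeR 4.0.16 (quasi-likelihood) and DESeq2 1.42.0 used the recovered reads. The steps of the sample comparison were tested on simulated data.

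The floxed gene of the genotype is not reported here. The genes and lists were chosen with earlier results of these data known. Values per sample are given for the 14 genes with the smallest p and for the genes of the 3 ratios that differed most. Slc2a1, Hk1, Hk2, Gapdh, Aldoa, Pkm, Eno1, Cs and Idh1 were added after their values were seen. Outside the 39, each list gives its called genes or the 1 with the smallest p. Gene positions and promoters are from RefSeq. Exon overlaps, over all transcripts of a gene, are from GENCODE (GRCm38). Transcript lengths and shared 50-base stretches are from the main transcript there.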

Additional observations from a re-analysis of the deposited data

Results flagged for a closer look

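The aldolase gene Aldoc, which is known from brain, stood out in castrated sample 4 at 64.6 rescaled CPM, against 35.7 to 40.6 in the other 3 castrated samples and 40.2 and 56.0 in intact samples. The gap to the next castrated sample was 0.831 of the range of the castrated group, above the 95% critical value of 0.829 for 4 samples. Among the 48 values examined in this way, for 39 genes and 9 ratios, it was the only such result. Chance alone gives about 1 in 20 of the values examined, and 1 of 48 is not above that rate.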

How the results depend on the processing

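Across 18 alternatives 23 of the 38 tested genes kept the sign of their difference. The 274 genes called in limma became 170 with no filter, 954 with array weights, 417 with the replicate block and 1293 in DESeq2, and ranged from 1 (without intact sample 2) to 1052 (without castrated sample 4) with 1 sample left out. Without intact sample 1 there were 9. A fit with 1 intact sample assumes that it varies like the castrated ones. Of the 274 calls 97 were higher and 177 lower, against 45 and 125 with no filter, 420 and 534 with array weights, 54 and 149 in edgeR and 662 and 631 in DESeq2. Calls among the 38 went from 0 to 2 with array weights (Suclg2 and Fh1), 1 with the replicate block (Suclg2) and 3 in DESeq2, and ranged from 0 to 2 with 1 sample left out. The block is no pairing by design: the labels share 2 numbers, and same-numbered samples deviated together at 0.0755 and 0.226.

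The sign turned for the following log2 differences, none of them called, and the cause was not tested. With the replicate block Hk2 was at -0.12, Slc16a1 at -0.008164, Pdk1 at -0.0144, Pdhb at 0.091 and Mdh2 at 0.02476. Hk2 was at -0.003281 in edgeR and -0.0001365 in DESeq2, and Idh1 at 0.01804 and 0.01971. On CPM as deposited Eno1 was at 0.01088, Pdhb at 0.026 and Idh1 at 0.037, and after quantile normalization Pkm was at 0.02643, Pdhb at 0.01333 and Idh1 at 0.05051. Pdhb was at 0.06267 with array weights. With 1 sample left out the ranges were -0.21 to 0.52 for Slc2a1, -0.38 to 0.46 for Hk2, -0.01985 to 1.42 for Pfkfb3, -0.39 to 0.08956 for Aldoc, -0.07458 to 0.12 for Gapdh, -0.19 to 0.11 for Eno1, -0.19 to 0.00907 for Ldha, -0.13 to 0.25 for Slc16a1, -0.08915 to 0.05172 for Pdhb, -0.05383 to 0.0543 for Cs, -0.21 to 0.19 for Idh1, -0.03199 to 0.17 for Suclg1 and -0.18 to 0.02043 for Mdh2. For ratios they were -0.23 to 0.52 for Hk2 to Hk1, -0.32 to 0.11 for Aldoc to Aldoa and -0.004991 to 0.33 for Mdh1 to Mdh2. With 2 intact samples, the spread in that group rests on 1 difference.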
